A study of Mus musculus with 94 samples.

Results

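Mpo, Ctsg, Elane, Prtn3 and Ms4a3 were followed through single basophils of mouse bone marrow. The first 4 encode proteins that neutrophil precursors pack into azurophil (primary) granules, and Ms4a3 is a membrane protein gene of granulocyte and monocyte precursors. These 5 genes, of 46078 gene identifiers in the count table, were taken by name from a list of azurophil granule genes of myeloid progenitors, and all 5 were found in the table and passed the filter on low genes. Basophils are granulocytes that bind IgE through the receptor FcεRI. The study sorted 94 of them from 3 female C57BL/6 mice with no genetic change or treatment named in the labels. All were live cells without lineage markers or Sca1 and with FcεRI on the surface. They were divided by CD34, a surface protein of blood progenitors, into 47 CD34+ and 47 CD34- cells.

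Azurophil granules are the first granules that form as a myeloid progenitor commits to the granulocyte lineage, and their genes are transcribed in a short window around the promyelocyte stage. Mpo, Ctsg, Elane and Prtn3 are textbook markers of granulocyte and monocyte progenitors, and their products stay in the granules of the mature cell after transcription has stopped. Mature basophils carry different granule proteases, above all Mcpt8 and Prss34, so that the 5 genes can be read beside those of the cells' own lineage.

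Each cell was its own library, and no label ties a cell to a mouse. Each gate is therefore 1 sample, no test was possible, and intervals cover counting error only. After filters on depth and quality 46 cells remained in each gate, with 262944 to 938322 gene reads in a CD34- cell and 374011 to 1154738 in a CD34+ cell. Kit and Cd34, genes of progenitor surface proteins, reached 10 CPM (counts per 1000000 gene reads) in 23 and 25 of the CD34+ cells and in 0 CD34- cells. Genes that define neutrophils were nearly absent. The 8 neutrophil markers summed to 2.96 CPM in the CD34- and 8.12 CPM in the CD34+ gate, with Ltf, Camp, Ly6g and Retnlg at 0 reads in both. The 7 mast cell markers summed to 1.02 and 7.86 CPM. Single cells gave most of these sums. Without CD34- cell 10 they were 0.0301 CPM each in the CD34- gate, and without CD34+ cell 5, which had 410 CPM of Csf3r and 285 CPM of the tryptase gene Tpsab1, they were 0.949 and 2.91 CPM in the CD34+ gate. One library goes against its label in several markers. CD34- cell 10 had 7.61 CPM of Fcer1a and 0 of Hdc, below every other kept cell, with 12273 CPM of Cd74 and 966 CPM of Csf1r, genes of antigen-presenting cells and of monocytes. Its Mcpt8 (45.6 CPM), Prss34 (118 CPM) and Cd200r3 (26.6 CPM) lay within the range of the other kept cells. Of the monocyte and dendritic markers it had no reads of Cx3cr1 or Ly6c2. It held 1 read each of Ctsg and Ms4a3 and 0 of the other members. Leaving it out moved no gate fold or pair correlation of the 5 genes beyond its counting interval or by more than 0.1.

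The 5 genes lie at 4 places in the mm10 genome. Mpo, which encodes myeloperoxidase, spans chr11:87793581-87804413 on the plus strand. Ctsg, the serine protease cathepsin G, spans chr14:56099881-56102574 on the minus strand, and its nearest coding neighbour, 14607 bp away, is the basophil protease gene Mcpt8. Prtn3 (proteinase 3) at chr10:79874476-79883174 and Elane (neutrophil elastase) at chr10:79886247-79888215 are neighbours on the plus strand, 3072 bp apart. Ms4a3 at chr19:11629496-11640851, on the minus strand, lies 5776 bp from Ms4a2, which encodes the beta chain of FcεRI. The strand setting of the counting is not given in the sources used here. Part of the Mpo exons (14.95% of their bases) overlaps the antisense model Gm11505, which held 9 and 145 reads in the CD34- and CD34+ gates. Part of the Prtn3 exons (9.18%) overlaps Plppr3, with 314 and 1164 reads. For both genes the reads of the partner cannot be told apart without strand.

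The stretches before the start sites share a short run of letters. GGAAGT, the core bound by ETS factors such as PU.1, was present in the 250 bases before the RefSeq start of all 5 genes, against 19.7% of 32851 such windows searched on both strands. The motifs were chosen after the sequences were seen. The stretch around that match is shown for each gene to make the shared letters visible, 5′ to 3′ on the strand of the gene, in RefSeq sequence of GRCm38.p6, with the motif in capitals and annotated exons left out.
Mpo, chr11:87793534-87793580: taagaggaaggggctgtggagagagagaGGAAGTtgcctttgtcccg
Ctsg, chr14:56102734-56102819: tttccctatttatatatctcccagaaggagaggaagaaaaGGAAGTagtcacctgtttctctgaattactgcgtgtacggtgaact
Elane, chr10:79886189-79886246: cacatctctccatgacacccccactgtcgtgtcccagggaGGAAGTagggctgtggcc
Prtn3, chr10:79879534-79879613: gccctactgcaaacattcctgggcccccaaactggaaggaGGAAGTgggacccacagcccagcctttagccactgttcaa
Ms4a3, chr19:11640861-11640946: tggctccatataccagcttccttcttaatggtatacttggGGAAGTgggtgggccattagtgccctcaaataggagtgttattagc

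Counted from the RefSeq start, the match begins 222 bases before the start in Mpo, 205 in Ctsg, 83 in Elane, 93 in Prtn3 and 55 in Ms4a3. The RefSeq start lies 203 bases downstream of the start of the gene span given above for Mpo, 65 bases for Elane and 5191 bases for Prtn3, whose stretch therefore falls inside that span, between annotated exons. Elane and Prtn3 also share AACGG, a core bound by MYB factors, at 50 and 55 bases before the start, and TATAA at 31 and 32 bases on the strand of the gene. Ctsg also holds TATAA, 236 bases before its start on the opposite strand. In all windows AACGG was present in 14.5% and TATAA in 22.8%. GCAAT, a core of C/EBP sites, was found in Elane and Mpo and in 23.1% of windows. These are matches of letters, and binding was not measured.

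Mpo, Ctsg and Ms4a3 were higher in the CD34+ gate, where 7339 of all 12460 genes compared had a fold above 0. Folds are log2 of CPM plus a pseudocount of 1, on reads summed over a gate, CD34+ over CD34-. A gene was compared when 10 cells of both gates together had a read. Elane had reads in 2 CD34- and 15 CD34+ cells and Prtn3 in 1 and 17, so that both passed this filter only through the gate where they are high. Their folds are therefore given as values and not counted. Mpo, Ctsg and Ms4a3 had reads in 10 cells of each gate. Of these, 3 of 3 reached a log2 fold of at least 1, where 12.2% of the 8132 genes with reads in 10 cells of each gate did so and 21.7% of all 12460 genes compared. At least 3 was reached by 2 of 3, against 0.111% of the 8132 and 2.54% of the 12460 genes. None reached -1, which 10.6% and 10.1% did. The median log2 fold of all 12460 genes was 0.19. Scaling by the ERCC spike-in reads, which keeps differences in RNA per cell, raised that median to 1.04.

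**Figure D1:**
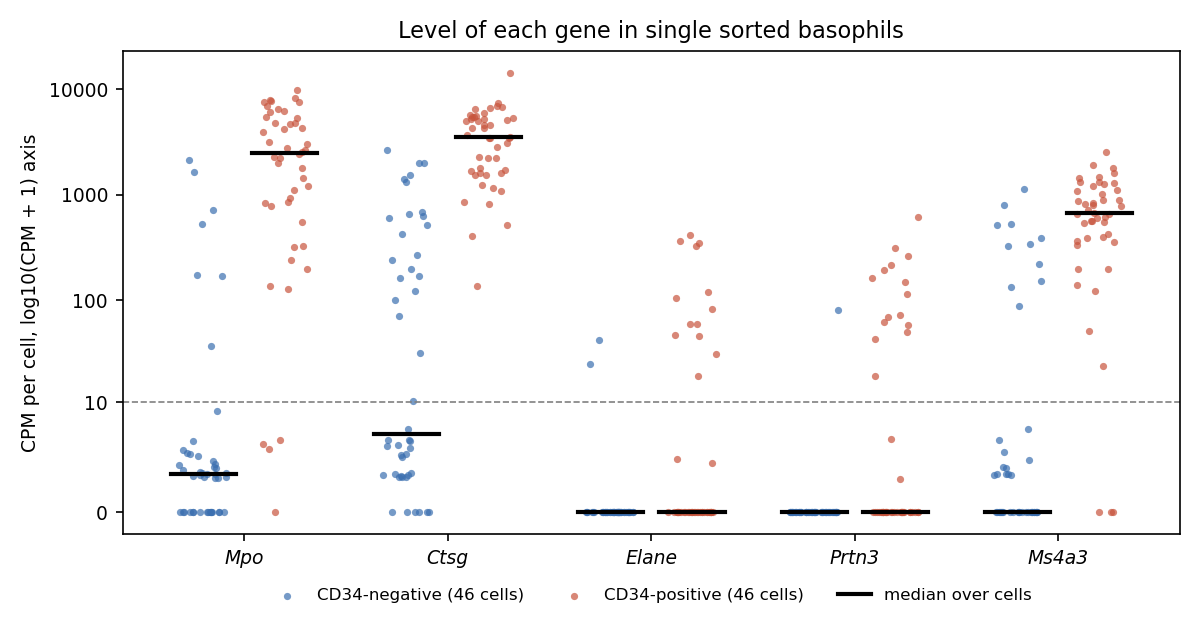
Level of each gene in every kept cell, as CPM on a log10(CPM + 1) axis. Points are cells (46 per gate), black bars are medians over the cells of a gate, and the dashed line marks 10 CPM. Most CD34+ cells sit above 100 CPM for Mpo, Ctsg and Ms4a3, whereas Elane and Prtn3 have medians of 0 in both gates.

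Mpo makes hypochlorous acid from hydrogen peroxide and is the most abundant protein of azurophil granules. Among the CD34- cells it ran from 0 through a median of 1.28 to 2114 CPM, and among the CD34+ cells from 0 through a median of 2494 to 9869 CPM. The gates overlapped over the range of the CD34- cells, with 26 CD34+ cells above the highest CD34- cell and no CD34- cell above the CD34+ median. The gate sums of 4186 and 93661 reads gave 125 and 3119 CPM, a log2 fold of 4.63 (4.58 to 4.68), which was the 27th largest of all genes compared. Few CD34- cells carried Mpo, and 2 of them held most of its reads. Only 7 of 46 reached 10 CPM, with a median of 525 CPM among them, and cells 36 and 25, at 2114 and 1655 CPM, held 70.6% of the reads of that gate. Without cell 36 the log2 fold was 5.45.

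Ctsg was the most abundant of the 5 per exon length and the only one present at 10 CPM in every CD34+ cell. Its product is a chymotrypsin-like protease. It ran from 0 through a median of 4.45 to 2672 CPM in CD34- cells and from 137 through 3514 to 14273 CPM in CD34+ cells. The lowest CD34+ cell was cell 37, and 17 CD34- cells reached its level, while 28 CD34+ cells exceeded all CD34- cells. Summed over a gate, 11731 reads gave 351 CPM and 115885 reads gave 3859 CPM, a log2 fold of 3.46 (3.42 to 3.49). In contrast to Mpo, Ctsg was spread over 22 CD34- cells at 10 CPM or more, with 6 at 1000 CPM or more.

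Elane and Prtn3, whose products digest elastin and many other proteins in the granule, were restricted to a minority of cells. Elane was at 10 CPM or more in 2 CD34- cells, at 24.2 CPM in cell 28 and 41.3 CPM in cell 36, and in 13 CD34+ cells, at 18.6 to 417 CPM with a median of 82.9 CPM among those 13. Prtn3 was at that level in 1 CD34- cell, at 81.5 CPM in cell 29, and in 15 CD34+ cells, at 18.2 to 617 CPM with a median of 115 CPM among those 15. For both genes the remaining cells were mostly at 0 reads: 44 and 45 CD34- cells, and 31 and 29 CD34+ cells. The log2 folds were 4.12 (3.80 to 4.44) for Elane, from 54 and 1340 reads, and 3.999 (3.68 to 4.31) for Prtn3, from 60 and 1312 reads. Both rest on a handful of cells. A pseudocount of 10 CPM lowered them to 2.23 and 2.19, and without CD34- cell 36 Elane was at 4.91. All CD34- reads of Prtn3 came from cell 29, so that without it the fold has 0 reads on one side and rests on the pseudocount.

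Ms4a3 encodes a membrane protein of the MS4A family and had the smallest fold of the set at a pseudocount of 1 CPM, but not at 10 CPM, where Elane and Prtn3 were lower. It ran from 0 through a median of 0 to 1130 CPM in CD34- cells and from 0 through 670 to 2530 CPM in CD34+ cells. The gates overlapped more than for Mpo and Ctsg, with 2 CD34- cells above the CD34+ median and 11 CD34+ cells above all CD34- cells. The gate levels were 103 and 786 CPM, a log2 fold of 2.91 (2.85 to 2.98), from 3459 and 23602 reads.

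Levels between the genes were compared per kb of exon. In the CD34+ gate the order was Ctsg at 3735, Mpo at 911, Ms4a3 at 417, Elane at 45.3 and Prtn3 at 25.2 CPM per kb. Ctsg was above Mpo in 44 of 46 cells, and Mpo above Ms4a3 in 32, while Elane and Prtn3 did not separate: Elane was higher in 9 cells, Prtn3 in 11, and 26 had neither. In the CD34- gate the order was Ctsg at 340, Ms4a3 at 54.9, Mpo at 36.6, Elane at 1.64 and Prtn3 at 1.04 CPM per kb. There Ms4a3 and Mpo did not separate, with Ms4a3 higher in 18 cells, Mpo in 17 and both at 0 in 11. The spread from cell to cell was wide for each. In CD34+ cells Ctsg had a mean of 3644 ± 2510 and Mpo of 926 ± 817 CPM per kb (SD over 46 cells).

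Detection at equal depth was higher in the CD34+ gate for Mpo, Ctsg and Ms4a3, as it was for 80.9% of the 12460 genes compared. Elane and Prtn3 passed the filter only through their CD34+ cells and are given as values. After 200000 gene reads were drawn from each cell, the median number of genes detected was 4525 per CD34- cell and 6530 per CD34+ cell, and the median gene was found in 13.04 percentage points more of the CD34+ cells. Mpo had a read in 34.8% of CD34- cells (exact 95% interval 21.4% to 50.2%) and in 95.7% of CD34+ cells (85.2% to 99.5%). Ctsg had one in 65.2% (49.8% to 78.6%) and 100% (92.3% to 100%), and Ms4a3 in 32.6% (19.5% to 48.0%) and 93.5% (82.1% to 98.6%). Elane was found in 4.35% (0.531% to 14.8%) and 28.3% (15.99% to 43.5%), and Prtn3 in 2.17% (0.0550% to 11.5%) and 34.8% (21.4% to 50.2%). The difference was 60.9 points for both Mpo and Ms4a3, 34.8 for Ctsg, 32.6 for Prtn3 and 23.9 for Elane. A smaller difference was found in 99.8% of genes for Mpo and Ms4a3, 89.6% for Ctsg, 87.7% for Prtn3 and 72.7% for Elane. A read is a weak criterion for the abundant genes. Of the CD34- cells, 22 had 1 to 3 reads of Mpo, 18 of Ctsg and 11 of Ms4a3, and these reads together were 0.0276%, 0.0219% and 0.0517% of all reads of the gene over both gates. Elane and Prtn3, which had far fewer reads in all, had no such cells. The source of these single reads was not tested, and cells were therefore classed at 10 CPM.

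At 10 CPM the CD34- cells that had any of the set all had Ctsg. Of 46 cells, 24 had none of the 5 genes and 10 had Ctsg alone. A further 4 (cells 15, 33, 44 and 46) had Ctsg and Ms4a3, 5 (cells 25, 26, 31, 32 and 34) added Mpo, and 2 (cells 28 and 36) added Elane as well. The exception was cell 29, with Ctsg and Prtn3. All 7 cells with Mpo also had Ctsg and Ms4a3, and all 11 with Ms4a3 had Ctsg. Since Ctsg is the most abundant of the set, a threshold common to all genes can give such an order, and its part was not tested. With a single read among 200000 drawn as the criterion the order was not nested: 4 cells (3, 13, 16 and 19) had Mpo alone, 2 (7 and 30) had Ms4a3 alone, and 3 (8, 11 and 17) had Mpo and Ctsg without Ms4a3. Among the cells at 10 CPM the levels did not follow one scale: cell 44 had 1418 CPM of Ctsg and 0 of Mpo, and cell 36 had 1314 CPM of Ctsg and 2114 of Mpo.

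In the CD34+ gate every cell had at least 2 of the 5 genes at 10 CPM. The largest class, 21 of 46 cells, had Mpo, Ctsg and Ms4a3. All 5 genes were present in 10 cells, Prtn3 was added to the common 3 in 5 cells (8, 27, 35, 39 and 45) and Elane in 3 cells (7, 22 and 36). Mpo was under 10 CPM in 4 cells (5, 23, 30 and 37) and Ms4a3 in 3 (1, 25 and 46). Every cell with Elane or Prtn3 also had Mpo, Ctsg and Ms4a3. The mean number of the 5 genes per cell was 3.46 in the CD34+ and 0.935 in the CD34- gate.

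**Figure D2:**
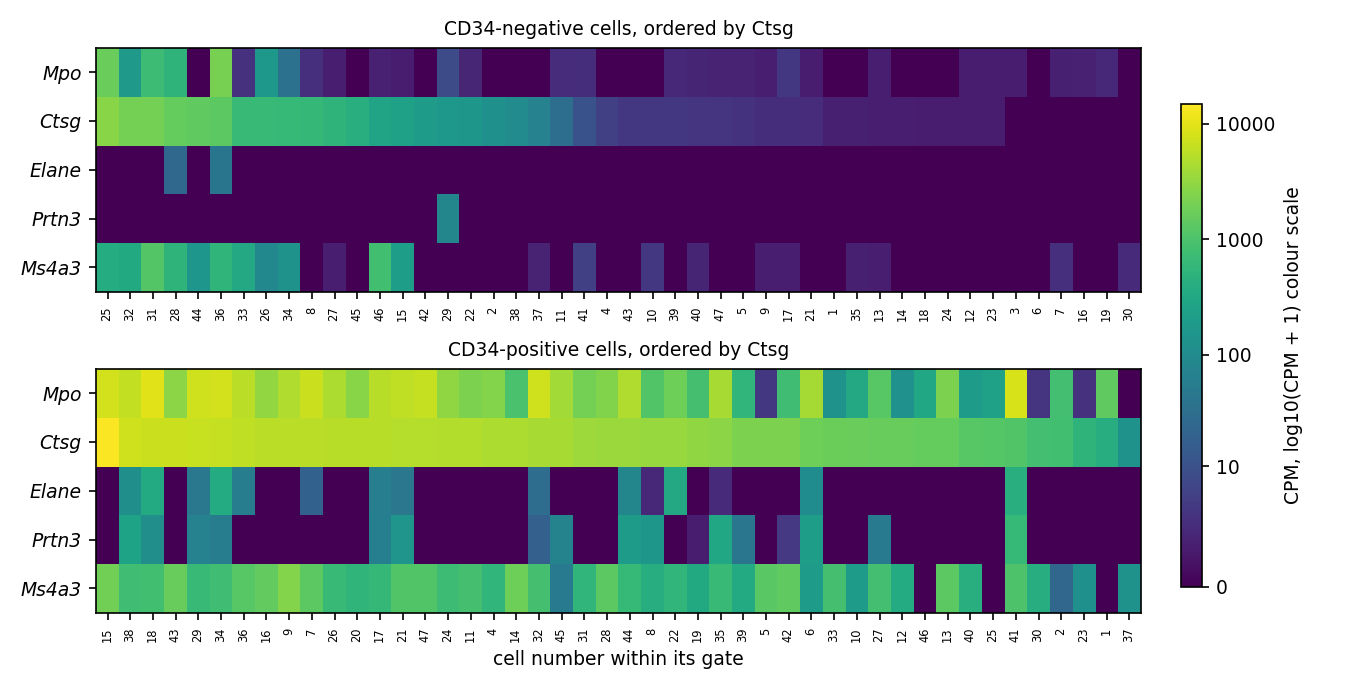
CPM of the 5 genes in every kept cell, on a log10(CPM + 1) colour scale. Columns are cells, ordered by Ctsg within each gate, with the cell numbers below. In the CD34- gate the cells with 10 CPM or more of Mpo or Ms4a3 are at the left, high in Ctsg, whereas the CD34+ cells with 10 CPM or more of Elane or Prtn3 are spread over Ctsg levels of 1093 to 7408 CPM.

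Within the CD34+ gate Mpo and Ctsg varied together more closely than either did with any other of the 8931 genes ranked. Their Spearman rho was 0.74 over 46 cells, where the median gene had a rho of 0.07 with Mpo and 0.02 with Ctsg. Since no label ties a cell to a mouse, cells are not replicates and correlations are given as a description only. Cell 41 was second highest in Mpo at 8238 CPM and among the lowest in Ctsg at 1093 CPM. Without it rho was 0.83. Ms4a3 followed Ctsg (rho 0.57) and Mpo (0.46, but 0.27 as Pearson r on the log2 scale and 0.61 with ERCC scaling). In the CD34- gate the rho was 0.47 for Mpo with Ctsg, 0.56 for Ctsg with Ms4a3 and 0.46 for Mpo with Ms4a3. Among the 26 cells with reads of both Mpo and Ctsg it was 0.77. However, only 7 CD34- cells reached 10 CPM of Mpo and 22 held 1 to 3 reads. Most of those 26 cells are thus ranked on very few Mpo reads, where CPM follows depth.

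Elane tracked Mpo (rho 0.64, the third of the 8931 genes most like Mpo) and less so Ctsg (0.33), and Prtn3 did likewise with 0.46 and 0.14. Among the 15 cells with Elane reads its values with Mpo and Ctsg were 0.42 and 0.10. For the 17 cells with Prtn3 reads they were 0.39 and 0.002. Over all 46 cells Elane and Prtn3 had almost no relation with Ms4a3, at 0.10 for Elane and -0.05 for Prtn3. In the plot of Mpo against Ctsg the 10 cells with both genes had at least 4153 CPM of Mpo and 1093 to 7408 CPM of Ctsg. Cell 15, at 7898 CPM of Mpo and the highest Ctsg, had 0 reads of both. The neighbouring genes on chromosome 10 often occurred together in CD34+ cells: 10 had both, 3 Elane only, 5 Prtn3 only and 28 neither at 10 CPM, so that Prtn3 was present in 76.9% of cells with Elane and 15.2% of cells without. In the CD34- gate 0 cells had both, 2 had Elane only and 1 Prtn3 only. The rho in CD34+ cells was 0.69. Among the 12 cells with reads of both it was 0.15, so that the value over all cells rests largely on presence and absence.

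**Figure D3:**
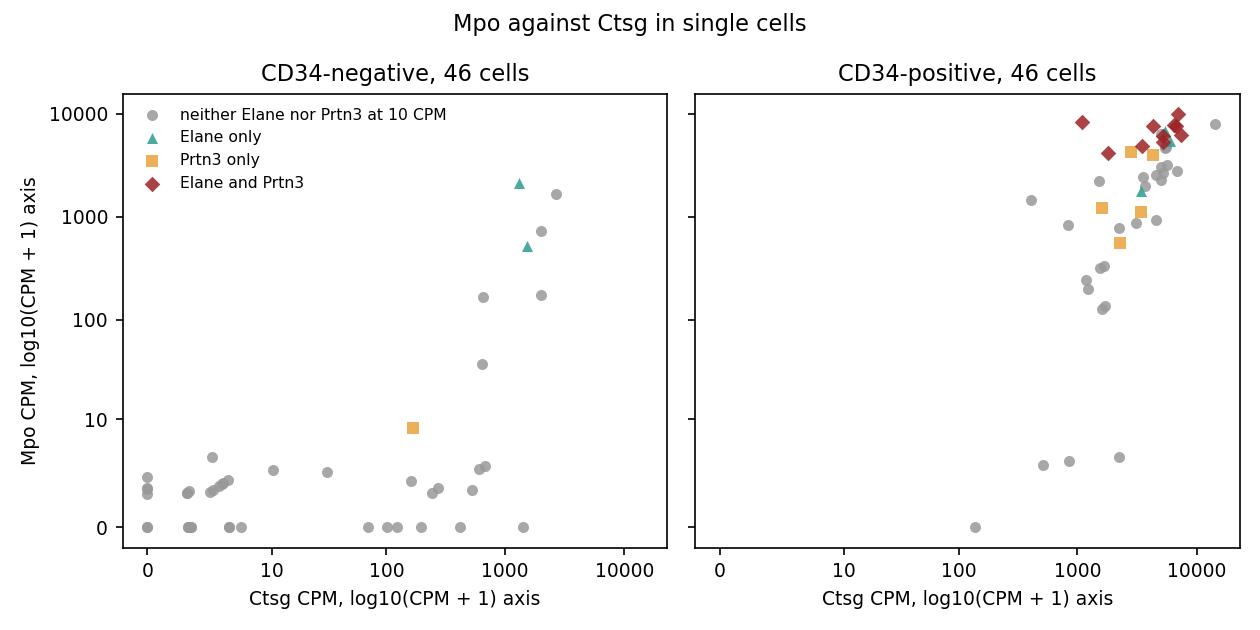
Mpo against Ctsg in single cells of each gate, both as CPM on log10(CPM + 1) axes. Symbols show which of Elane and Prtn3 reached 10 CPM. The 10 CD34+ cells with both genes have 4153 to 9869 CPM of Mpo, a range that also holds cells without them, and the 4 CD34+ cells under 10 CPM of Mpo have 137 to 2237 CPM of Ctsg.

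The balance of Mpo and Ctsg differed widely among CD34+ cells. In the 42 cells with 10 CPM of both, the log2 ratio of Mpo to Ctsg per kb had a median of -2.197 and ran from -5.36 in cell 33 to 1.19 in cell 41. Mpo was the higher of the pair per kb in 2 cells. The ratio had a rho of 0.56 with Elane, 0.46 with Prtn3 and 0.44 with Kit, the receptor of stem cell factor, and of -0.38 with Prss34 and -0.34 with Mcpt8. Cells richer in Mpo for their Ctsg thus ranked higher in Kit, Elane and Prtn3 and lower in the basophil proteases, while the rho with Cd34 was 0.05. These measures share the same 42 cells and the same Mpo and Ctsg values.

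The 5 genes also differed from each other in how they ranked with Kit and with the basophil proteases. In CD34+ cells rho with Kit was 0.57 for Elane, 0.56 for Mpo and 0.52 for Prtn3, against 0.29 for Ctsg and 0.24 for Ms4a3. These values rest in part on presence and absence of Kit. Among cells with reads of both genes rho was 0.42 for Elane (12 cells), 0.32 for Mpo (25 cells) and 0.65 for Prtn3 (13 cells), and 0.12 for Ctsg (25 cells) and -0.36 for Ms4a3 (24 cells). Kit reached 10 CPM in 11 of 13 cells with Elane and in 12 of 33 without, and in 12 of 15 cells with Prtn3 and in 11 of 31 without. All 23 cells with Kit had Mpo, Ctsg and Ms4a3. Over all cells of the gate the rho with Cd34 itself was weaker than with Kit, from 0.08 for Ctsg to 0.27 for Prtn3. Among cells with reads of both genes rho with Cd34 was 0.72 for Elane (10 cells), above its value with Kit. There it was 0.18 for Prtn3 (12 cells), 0.013 for Mpo (28 cells), -0.17 for Ctsg (28 cells) and -0.43 for Ms4a3 (27 cells). Over all cells of the gate rho with the granule carboxypeptidase gene Cpa3 was 0.68 for Ctsg and 0.61 for Ms4a3, 0.36 for Mpo, -0.03 for Elane and -0.24 for Prtn3. With Mcpt8 it was 0.56 for Ctsg and 0.47 for Ms4a3, and -0.14 for Elane and -0.40 for Prtn3. Among the 15 cells with Elane reads its values with Cpa3 and Mcpt8 were above 0, at 0.046 and 0.125, and among the 17 with Prtn3 reads those of Prtn3 were -0.52 and -0.48. Prtn3 also ranked opposite to Fcer1a, the IgE-binding chain of FcεRI, at -0.46. Its rho of 0.55 with the lysozyme gene Lyz2 was -0.13 among the 12 cells with reads of both.

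**Figure D4:**
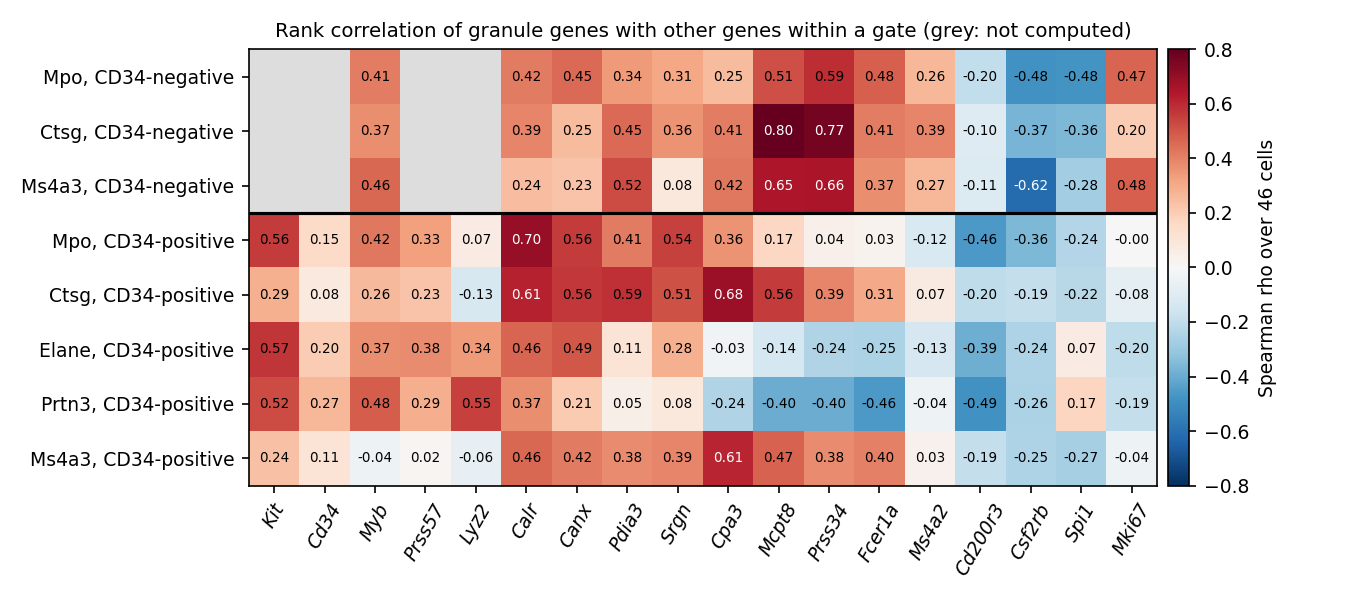
Spearman rho over 46 cells between each granule gene (rows, by gate) and other genes of the lists (columns). Red is positive, blue negative and grey not computed because too few cells had reads. In CD34+ cells Mpo, Elane and Prtn3 have rho of 0.52 to 0.57 with Kit, and Ctsg and Ms4a3 have rho of 0.61 to 0.68 with Cpa3.

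In the CD34- gate all 3 genes with enough cells to rank followed Prss34 and Mcpt8, and less closely Cpa3. Ctsg ranked with Mcpt8 (rho 0.80) and Prss34 (0.77), its 2 nearest genes of 7211, and Ms4a3 with Prss34 (0.66) and Mcpt8 (0.65). Mpo had a rho of 0.59 with Prss34 and 0.51 with Mcpt8 there, and of 0.04 and 0.17 in the CD34+ gate. With Cpa3 the rho in CD34- cells was 0.25 for Mpo, 0.41 for Ctsg and 0.42 for Ms4a3. The difference between the gates was not tested. In this gate both proteases themselves varied widely, Prss34 from 17.5 through a median of 6161 to 92634 CPM. Other measures moved with the 5 genes in CD34- cells. Gene reads per ERCC read, a measure of RNA per cell, had a rho of 0.66 with Ctsg, 0.61 with Ms4a3 and 0.55 with Mpo, and the number of genes with a read had 0.60, 0.51 and 0.57. In CD34+ cells the same measures had rho of 0.02 to 0.38 and of -0.04 to 0.55 with the 5 genes. Sequencing depth (gene reads) had rho between -0.23 and 0.06 in both gates. The part of RNA content in these relations was not tested.

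With the 5 genes themselves left out, the genes whose pattern was most like Mpo in CD34+ cells were Calr (rho 0.70), Gm14586 (0.63), Syncrip (0.63), Calr-ps (0.62) and Atp5g3 (0.62). Calr encodes calreticulin, an endoplasmic reticulum chaperone of glycoproteins. Calr-ps is a processed copy of it, and their reads may not be told apart. For Ctsg they were Cpa3 (0.68), Lman1 (0.66), Atp5g3 (0.61), Calr (0.61) and Ssr4 (0.59), where Lman1 is a cargo receptor for export from the endoplasmic reticulum and Ssr4 a subunit of the translocon-associated complex. In CD34- cells Ctsg was followed, after Mcpt8 and Prss34, by F630028O10Rik (0.67), Samm50 (0.64) and Nucb1 (0.64). Mpo was most like Smim11 (0.71), Alg9 (0.65), AI662270 (0.62), Smu1 (0.61) and Ubash3a (0.61). Over all ranked members together the leading genes were Gm14586, Syncrip, Calr-ps, Calr and Rbmxl1 in the CD34+ gate. In the CD34- gate they were Prss34, Mcpt8, Lig1, Papss2 and 4930519L02Rik. The order is not firm. With Pearson r on the log2 scale 0 of the 5 genes nearest Mpo in CD34- cells were again among the nearest 5, and 2 of 5 in CD34+ cells.

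Proteins that share the azurophil granule with the set, or that fold and fill it, were less uniform. Counts and medians of the gene lists are over genes with reads in 10 cells of each gate. Of 12 genes of granule contents and handling 8 had them, 2 were at least 1 higher in log2 in the CD34+ gate and 1 lower, with a median of 0.17. Lyz2, Prss57 and Serpinb6a did not have reads in 10 cells of each gate and are given as values. Lyz2 was at 1.38 and 33.3 CPM in the CD34- and CD34+ gates (log2 fold 3.85), and 44 of its 46 CD34- reads came from cell 10, without which the log2 fold was 5.01. Prss57, a serine protease gene of the same granule, was at 4.40 and 34.1 CPM (2.70), with 89.8% of its CD34- reads in cell 34, and its log2 fold without that cell was 4.59. Srgn, the proteoglycan core that holds granule proteases, was abundant in both gates, at 927 and 1985 CPM (1.10). Ctsc, the peptidase that activates Ctsg, Elane and Prtn3, was at 95.7 and 94.7 CPM (-0.01), and the protease inhibitor gene Slpi was lower in CD34+ cells, at 122 and 59.97 CPM (-1.01, or -0.86 without CD34- cell 44). Serpinb6a was at 1.20, at 0.74 without CD34+ cell 34 and at 1.85 without CD34- cell 15.

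Of 11 genes for folding glycoproteins and making haem, the cofactor of myeloperoxidase, 10 had reads in 10 cells of each gate, 3 were at least 1 higher and 0 lower, with a median of 0.41. These 3 were the endoplasmic reticulum chaperones, with Calr at 221 and 1421 CPM (2.68), Canx at 171 and 470 (1.45) and Pdia3 at 406 and 1016 (1.32). The haem enzyme gene Alad, at 0.51, was at 1.21 without CD34- cell 3 and at 0.19 without CD34+ cell 10. Of the haem enzymes Fech, the last step of the pathway and the gene not counted, was at 1.38, and at 2.30 without CD34- cell 34, which held 56.0% of its reads in that gate, while Alas1, the first step, was at 80.8 and 93.5 CPM (0.21).

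Genes of later granules were largely without reads. Of 12 such genes only Lcn2 had reads in 10 cells, though not in 10 of each gate, at 19.6 and 66.6 CPM (1.71), and Ltf and Camp had 0 reads in both gates. Myeloid transcription factors showed no common direction. Of 9 with reads in 10 cells of each gate, 1 was at least 1 higher and 1 lower, with a median of -0.18 (-0.06 over the 10 compared). The gene not counted, Irf8, was at 0.84, with 93.5% of its CD34- reads in cell 10, and at 2.19 without that cell. Without CD34+ cell 28, which held 47.2% of its CD34+ reads, Irf8 was at 0.19. Myb was at 44.3 and 253 CPM (2.49), and Spi1, which encodes PU.1, at 341 and 130 CPM (-1.38). Cebpa was at 474 and 417 CPM (-0.18), Gfi1 at 12.3 and 14.95 CPM (0.26, or 1.08 without CD34- cell 35), and Cebpe, which acts on later granule genes, had 0 reads in both gates. Across CD34+ cells rho with Myb was 0.48 for Prtn3, 0.42 for Mpo and 0.37 for Elane, and -0.04 for Ms4a3. Among cells with reads of both it was 0.66 for Prtn3, 0.32 for Mpo and -0.33 for Ms4a3.

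The proteases of basophils and mast cells were higher too, but by smaller folds than the 5 genes. Mcpt8 (1.40), Prss34 (1.37) and Cpa3 (1.33) had reads in 10 cells of each gate and 3 of 3 passed 1, with a median of 1.37. Gzmb, not counted, was at -0.11, a value that rests on single cells: it was 0.82 without CD34- cell 32 and -1.32 without CD34+ cell 10. The smallest log2 fold of the 5, 2.91 for Ms4a3, and the smallest of the 4 granule protein genes, 3.46 for Ctsg, were above the largest of these. Of 8 proliferation genes 4 had reads in 10 cells of each gate and 3 of these passed 1, with a median of 1.85. Within CD34+ cells the summed proliferation genes had rho of -0.17 to 0.10 with the 5 genes. Mcm2, Pcna and Mcm5 of that list had 0.42, 0.38 and 0.30 with Mpo and 0.40, 0.37 and 0.28 with Ctsg. For Mcm2 the values were 0.11 and 0.20 in the 36 cells with reads of both. The other genes of the list ran from -0.20 (Ccnb1 with Ctsg) to 0.14 (Top2a with Mpo). Mki67 reached 10 CPM in 6 of 13 cells with Elane and in 25 of 33 without it. In CD34- cells the summed proliferation genes had rho of 0.45 with Mpo and 0.34 with both Ctsg and Ms4a3, and Mki67 reached 10 CPM in 5 of 7 cells with Mpo and in 7 of 39 without. CD34- cells 25 and 36, which hold most Mpo reads of that gate, were also its highest in Mki67, at 3636 and 2890 CPM, and the part of proliferation in their Mpo was not tested.

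The remaining lists give the cell types around these values. Of 10 basophil identity genes 2 were at least 1 higher and 4 lower in the CD34+ gate, with a median of -0.30, and of 5 progenitor surface genes 0 were higher and 1 lower, with a median of 0.58. Of these, 2 crossed the threshold without 1 CD34- cell, Csf2ra from 0.96 to 1.29 and Cd27 from 0.96 to 1.36. Kit, not counted because 6 CD34- cells had a read, had the largest log2 fold of all genes (6.55). Monocyte and dendritic cell markers summed to 142 and 18.4 CPM in the CD34- and CD34+ gates (6.57 in the CD34- gate without cell 10), and 3227 of the 3230 CD34- reads of Cd74 came from cell 10. Eosinophil markers summed to 174 and 114 CPM, led in the CD34- gate by Ccr3, which basophils share, at 97.9 and 4.70 CPM (-4.12, or -4.80 without CD34+ cell 46). In the CD34+ gate 48.0 of the 114 CPM were Prg2, with 96.5% of its reads in cell 34 at 1405 CPM, and the sum was 69.9 CPM without that cell. Cell 34 also held the most Elane and Mpo reads of its gate, but by CPM it ranked 2 for Elane and 4 for Mpo.

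**Figure D5:**
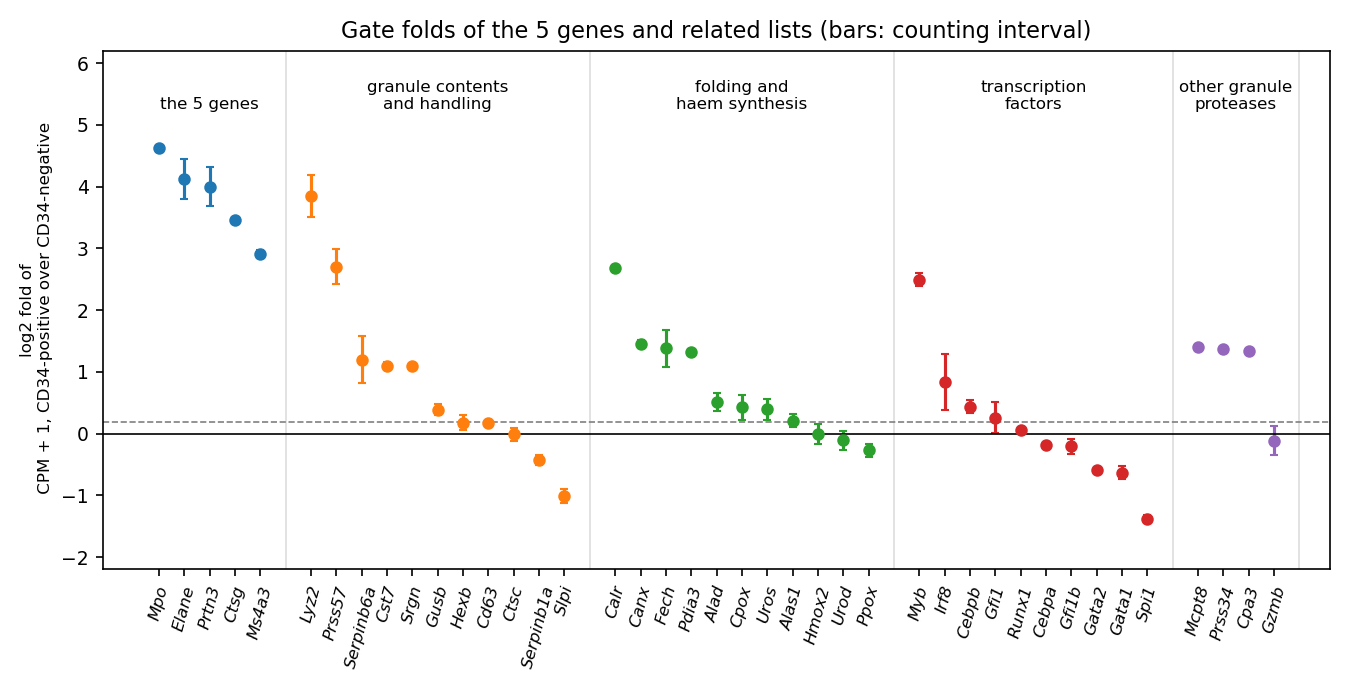
Log2 fold of CPM plus 1, CD34+ over CD34-, of the 5 genes and 4 related lists, genes ordered by fold within a list. Bars are 95% counting intervals, often smaller than the point, and the dashed line is the median of all genes compared, 0.19. The 4 granule protein genes lie between 3.46 and 4.63 and Ms4a3 at 2.91, and Lyz2 at 3.85 is the only other gene plotted above 3.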

How the data were processed

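RNA of single index-sorted cells was copied from polyadenylated RNA, amplified and sequenced as short reads, as the protocols in the labels state. The authors deposited whole read counts per gene and cell, not normalized. GSNAP, HTSeq 0.5.3p3 and mm10 are named in the submitters' processing notes. The annotation and strand setting are not given in the sources used here. Of all reads 32.4% were assigned to genes, 3.97% to ERCC sequences, 7.68% were ambiguous, 33.0% had no feature and 22.9% were not aligned. Only gene reads entered library sizes.

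A cell needed at least 50000 gene reads, 1000 genes with a read, under 20% mitochondrial and under 50% ERCC reads to be kept. Left out were CD34- cell 20 and CD34+ cell 3. Cells are named by their sort, and no doublet caller was run on singly sorted cells. Counts were summed over a gate and scaled to CPM. Folds used a pseudocount of 1 CPM and exact Poisson 95% bounds of one gate against the other. Reads carry no molecular identifiers, so intervals cover counting error only. A gene was compared when at least 10 kept cells had a read, which 12460 genes did. Counts and medians over members and lists are given for the 8132 with a read in 10 cells of each gate. Genes ranked by correlation had to reach 10 CPM in a gate and have a read in 10 of its kept cells. Coordinates, exon lengths and overlaps came from GENCODE M21 on mm10, and start sites from RefSeq.

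The genes named were those of 13 lists, the 5 members being a list of their own, and the 5 genes most like Mpo, Ctsg or all ranked members. Cells are named that hold the highest level or at least 20% of the reads of a gene, with further cells named after their values were seen. Items withheld for evaluation are not reported here and were left out of their lists. Members and lists were chosen with earlier results of these data known. The calculations were tested on simulated data. Alternatives were other scalings, pseudocounts, depths and cell sets. TMM factors came from edgeR 4.0.16 in R 4.3.3, and all else was computed in Python 3.11.15 with pandas 2.3.3, scipy 1.17.1 and numpy 2.4.6.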

Additional observations from a re-analysis of the deposited data

Results flagged for a closer look

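Reads of the set appeared in a library that no comparison used. CD34+ cell 3 was left out for its 31504 gene reads. It held 99 reads of Mpo, 57 of Ctsg and 21 of Ms4a3, and 0 of Elane and Prtn3, above the limit of 3 reads that a count of 0 allows. Its Mpo of 3142 CPM lies within the range of the kept cells of its gate. CD34- cell 20, left out with 24565 gene reads, held 2 reads of Ctsg and 2 of Ms4a3, below that limit.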

How the results depend on the processing

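Every log2 fold of the 5 genes stayed above 2 under each alternative run. Scaling by ERCC reads gave 5.59 for Mpo, 4.42 for Ctsg, 4.92 for Elane, 4.81 for Prtn3 and 3.88 for Ms4a3. TMM factors gave 4.42 for Mpo, 3.25 for Ctsg and 2.71 for Ms4a3. Cells numbered 7 to 42 gave 4.30 for Mpo and 3.33 for Ctsg, and the mean of per-cell CPM gave 4.73 for Mpo. A pseudocount of 10 CPM gave 4.53 for Mpo, 2.23 for Elane, 2.19 for Prtn3 and 2.81 for Ms4a3, and one of 0.1 CPM gave 4.70 for Elane and 4.53 for Prtn3. Without the cell with most reads of the gene in each gate the folds were 5.37 for Mpo, 3.53 for Ctsg, 4.51 for Elane, 5.11 for Prtn3 and 3.20 for Ms4a3. Leaving out each cell in turn gave ranges of 4.55 to 5.45 for Mpo, 3.34 to 3.66 for Ctsg, 3.73 to 4.91 for Elane, 3.62 to 5.48 for Prtn3 and 2.84 to 3.26 for Ms4a3. Prtn3 was at 3.62 without CD34+ cell 41, an alternative added, like those without CD34- cell 10 or without single cells for the other lists and the requirement of reads in 10 cells of each gate, after the data were seen.

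With at least 10 reads of the 200000 required, 13.04% of CD34- cells had Mpo, 43.5% Ctsg and 0% Elane. In CD34- cells the correlation of Mpo with Ctsg was 0.61 as Pearson r, 0.57 with ERCC scaling, 0.62 in cells numbered 7 to 42 and 0.77 in cells with both, and that of Ctsg with Ms4a3 was 0.71 as Pearson r and 0.81 in cells with both. In CD34+ cells Mpo with Elane was 0.45 as Pearson r and 0.42 in cells with both, and Elane with Prtn3 was 0.57 after drawing and 0.15 in cells with both. Among the pair correlations signs changed for weak values: Elane with Ms4a3 at -0.029 in cells with both, and Prtn3 with Ms4a3 at 0.13 as Pearson r, 0.054 with ERCC scaling and 0.0054 in cells numbered 7 to 42. List medians changed sign as well. With ERCC scaling the medians of the transcription factor and basophil lists were 0.90 and 0.66, against -0.06 and -0.30 in CPM. With no filter on low genes those of the monocyte and eosinophil lists were -1.60 and 0.26. Over the 2 genes compared in each list they were 1.75 and -2.23.

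The cause of these changes was not tested, except that a pseudocount near or above a level lowers its fold by construction. No paired analysis was possible because a number in a title is no more than the name of a cell, and nothing was tested. From 50000 drawn reads to no drawing, the share of CD34- cells with a read went from 21.7% to 65.2% for Mpo and from 52.2% to 87.0% for Ctsg, and was 4.35% for Elane and 2.17% for Prtn3 at both.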
